A study of Mus musculus with 2 samples.

Results

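Conventional type 2 dendritic cells (cDC2) were followed in droplet single-cell RNA sequencing of fibrotic mouse liver, in which each unique molecular identifier (UMI) counts 1 captured RNA molecule. The cells were chosen from measured values. A barcode was kept with 500 or more UMIs, 300 or more genes and a mitochondrial share below 20%. A cDC2 then needed at least 5 UMIs of the MHC class II chain H2-Aa. It further needed a UMI of at least 2 of the 5 markers Cd209a, Clec10a, Flt3, Tnip3 and Mgl2, at most 2 UMIs of C1qa, C1qb and C1qc together, and none of Siglech, Cd79a, Cd3e, Xcr1 or Fscn1, which mark plasmacytoid cells, B cells, T cells, type 1 dendritic cells and migratory dendritic cells. The rule held for 347 of 20753 barcodes kept. There were 2 groups, each with 1 library: mice given carbon tetrachloride (CCl4), a toxin whose repeated dosing scars the liver, and mice given CCl4 and IPA (indole propionic acid), which gut bacteria make from tryptophan. Both groups thus carried the CCl4 injury, and an uninjured group was not analysed here. Strain, sex, age, doses and the number of animals per library are not given in the sources used here. No test was run, because a single library stands for each group: the values compare these libraries, and nothing measures how far replicate mice of a treatment would differ. All intervals are exact 95% intervals and cover counting error only.

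Conventional dendritic cells arise from bone marrow precursors under the control of the cytokine receptor Flt3, and take up antigen in tissues. The type 2 subset depends on the transcription factor Irf4, carries the inhibitory receptor Sirpa and C-type lectins such as Cd209a and Clec10a, loads peptides on MHC class II and is known for priming CD4 T cells. In the liver these cells lie mainly around portal tracts, and monocytes recruited by inflammation can take on some of the same surface molecules.

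The CCl4 library held 276 such cells among 10294 barcodes kept, or 2.68% (2.38 to 3.01). The IPA library held 71 among 10459, or 0.679% (0.531 to 0.856). The CCl4 share was the higher by 3.95-fold (3.03 to 5.20). Fewer cells of this kind and a larger recovery of other cells cannot be told apart in a share, so the cells were also counted against 3 other kinds of myeloid cell chosen by marker rules. There were 0.952 cDC2 per plasmacytoid dendritic cell (0.804 to 1.13) with CCl4 alone and 0.281 (0.213 to 0.366) with IPA. There were 2.3 cDC2 per classical monocyte (1.85 to 2.87) against 0.577 (0.425 to 0.779). Against both of these the number of cDC2 was lower in the IPA library beyond counting error. Against C1q macrophages it was the other way, with 2.63 cDC2 per macrophage (2.09 to 3.32) and 6.45 (3.40 to 13.5). The barcodes of that macrophage rule were shallow, with a median of 1221 and 1500 UMIs. Their median mitochondrial share was 0.04% and 0.29%, and 50 of 105 and 3 of 11 held no mitochondrial UMI. How many of them are whole cells was not tested. Plasmacytoid cells numbered 290 and 253 and classical monocytes 120 and 123, and the intervals of their share ratios took in equal shares. Cells with both Siglech and Cd209a were 166 and 89, with a CCl4 share 1.90-fold that of IPA (1.46 to 2.48), and C1q macrophages were 105 and 11, with a CCl4 share 9.70-fold that of IPA (5.20 to 20.0). Type 1 dendritic cells were 9 and 5 and migratory dendritic cells 7 and 6, and a difference in these was not detectable at such numbers.

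**Figure D1:**
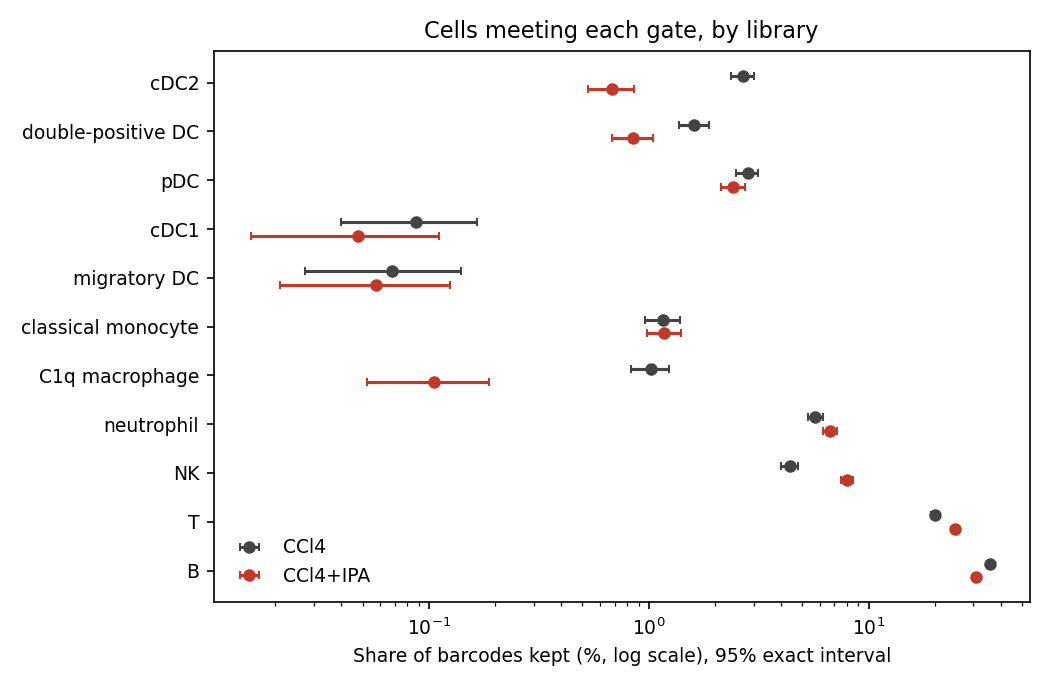
Share of the barcodes kept (percent, log axis) that met each marker rule in the CCl4 (grey) and CCl4+IPA (red) libraries, 1 library per group; points are shares and bars are exact 95% counting intervals. The cDC2 share was 2.68% against 0.679%, while the intervals of plasmacytoid cells and classical monocytes overlapped between the libraries.

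The libraries as a whole were of similar size, with 44888174 and 37973901 UMIs over the barcodes kept. The median cDC2 carried 9369.5 UMIs with CCl4 and 7273 with IPA, in all 2538724 and 561218 UMIs, so a gene with 1 UMI in the IPA cells is at 1.78 CPM, where CPM is UMIs per 1000000 UMIs of the cells summed. The median mitochondrial share of these cells was 1.99% and 1.00%, and 18S ribosomal RNA (Rn18s-rs5) had 137291 and 6279 UMIs, 4.83-fold higher by CPM in the CCl4 library (4.71 to 4.96). In the other cell types Rn18s-rs5 was between 3.65-fold and 8.99-fold higher in the CCl4 library. Because this 1 transcript takes up part of the total, every other ratio depends on the scaling. Scrublet, a doublet caller, marked 278 and 331 barcodes, of which 0 were cDC2. The libraries shared 23 barcode sequences, 1 of them a cDC2 of the CCl4 library.

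The rule fixes the levels of its own genes, which are given as a description. Cd209a, a lectin of the DC-SIGN family, had a UMI in 241 of 276 cells (87.3%) and 57 of 71 (80.3%). Flt3 was found in 80.8% and 80.3%, Clec10a in 65.6% and 64.8%, the NF-kB inhibitor Tnip3 in 65.9% and 59.2%, and the lectin Mgl2 in 17.4% and 28.2%. Among B cells, whose median depth was 2853 and 2424 UMIs, Cd209a was seen in 1.01% and 0.280%. Exactly 2 markers were carried by 73 and 23 cells, 3 by 104 and 22, 4 by 78 and 20, and all 5 by 21 and 6. The H2-Aa limit was far below the cells' levels: the median cell had 92 UMIs (quartiles 63.75 and 120.25) with CCl4 and 70 (46 and 98.5) with IPA, and none had 5 or 6.

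Just outside the rule stood 60 and 18 barcodes with exactly 1 marker and 19 and 17 that failed on H2-Aa alone. Siglech alone kept out 217 and 136 barcodes, and those with 5 or more Siglech UMIs (183 and 127) were unlike the cells inside: Ly6d, a plasmacytoid and lymphoid surface gene, was at 1877 and 2158 CPM against 2.36 and 3.56 CPM. The 24 and 7 barcodes with a single Siglech UMI stood nearer to the cells inside, with Tnip3 at 256 and 166 CPM and H2-Aa at 8894 and 7802 CPM. At the inner edge, the 23 IPA cells with exactly 2 markers held the monocyte gene Ly6c2 at 791 CPM and the lysozyme gene Lyz2 at 3727 CPM, against 79.6 and 988 CPM in the 48 cells with 3 or more. In the CCl4 library the same figures were 143 and 1985 CPM in 73 cells, against 46.1 and 1184 CPM in 203 cells.

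Genes outside the rule bore out the label only in part. Sirpa was at 193 CPM in the CCl4 cells and 217 CPM in the IPA cells, and the integrin chain Itgax (CD11c) at 191 and 194 CPM. Zbtb46, the transcription factor shared by conventional dendritic cells, was at 34.7 and 37.4 CPM, near its level in type 1 dendritic cells (36.0 and 44.0 CPM, from 9 and 5 cells) and above that in classical monocytes (0.80 and 0 CPM). Irf4 was at 59.1 CPM (150 UMIs) and 41.0 CPM (23 UMIs). Of the genes of the Notch-dependent cDC2 known from spleen, the surface markers were nearly absent: Esam had 0 UMIs in either library, Cd4 had 2 and 1, and Clec4a4 had 2 and 0. The Notch target Dtx1 also had 0, while the receptor Notch2 had 233 and 77 UMIs and Cd300a 598 and 154. The 4 measured genes of that list all had a ratio of IPA over CCl4 above 1, with a median log2 ratio of 0.72 (0.47 to 0.80 over the alternatives), 1 of them with an interval above 1. Of all genes measured in cDC2, 66.1% had a ratio above 1. The list was not particular to cDC2, with 9 of 9 above 1 in B cells (median 0.64, all genes 0.27) and 9 of 9 in T cells (0.42, all genes 0.29). In plasmacytoid cells it had 1 of 4 (-0.08, all genes 0.17). The genes of the other known form, Clec12a and Ccr2, were carried by 68.1% and 92.4% of CCl4 cells and by 46.5% and 84.5% of IPA cells. Clec9a and Xcr1 separate the type 1 subset, and Clec9a was at 23.2 and 14.3 CPM here against 171 and 176 CPM there. This contrast is partly fixed by the rules. The type 1 cells needed Xcr1, which the cDC2 rule excluded, and at least 1 of Clec9a, Cadm1, Wdfy4 and Itgae. The Kupffer cell gene Clec4f, the macrophage receptor Mertk and the neutrophil gene Ly6g had 0 UMIs in the cDC2 of both libraries. Other markers of these cells were present at low levels. The 12 macrophage and Kupffer genes summed to 122 and 180 CPM, with 36 and 13 UMIs of the macrophage gene Adgre1. The 10 neutrophil genes summed to 107 and 144 CPM.

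**Figure D2:**
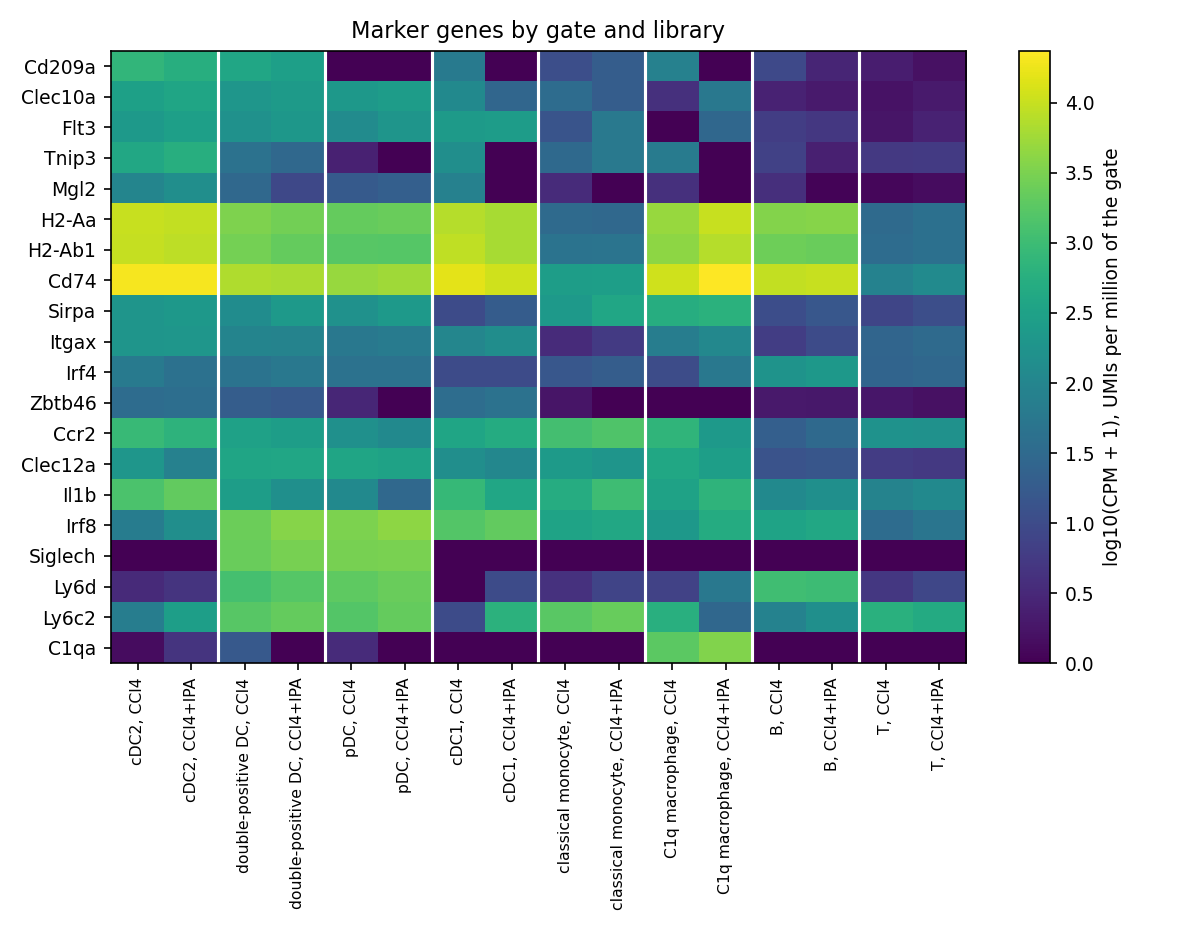
Levels of marker genes (rows, log10 of CPM plus 1, colour scale) summed over the cells of each marker rule in each library (columns; CCl4 left, CCl4+IPA right in each pair). Siglech is 0 in the columns whose rule excludes it; Zbtb46, Itgax and Ccr2, which the rule did not use, were present in the cDC2 of both libraries.

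Compared with type 1, plasmacytoid, double-positive, monocyte and macrophage cells of the same library, few genes stood highest in cDC2 by a wide margin. Of 1118 genes compared, 3 were at least 2-fold above the next cell type in both libraries: Marcksl1, an actin-binding signalling protein, Ppp1r15a, a stress-induced phosphatase subunit, and the rule's own Tnip3. Marcksl1 was at 291 and 421 CPM, 2.83-fold and 3.86-fold above the next cell type. Ppp1r15a was at 838 and 848 CPM, 2.64-fold and 3.11-fold above. The next genes by the lower of both folds were Nfkbia, the inhibitor of NF-kB, the rule's own Cd209a, the cyclin Ccnd2, Hivep2 and Trerf1. H2-Oa, Stap1, Bin1, Dapk1, Il1b, Pid1 and Nfkb1 followed. The cells were chosen partly by Tnip3 and Cd209a, so the rank of these genes is partly fixed by the rule. Il1b, the precursor of interleukin 1 beta, was at 1358 CPM in CCl4 cDC2 and 855 CPM in the next of these cell types, type 1 dendritic cells (9 cells). In the IPA library it was at 2113 CPM against 1054 CPM in classical monocytes. Neutrophils were not among the cell types compared. They had an Il1b UMI in 93.9% and 91.0% of cells at a median of 2544.5 and 1868 UMIs, against 77.5% and 76.1% of the deeper cDC2. Shared levels were the rule for MHC class II: H2-Ab1 was at 9576 and 8743 CPM in cDC2, 4241 and 7674 CPM in C1q macrophages and 2549 and 2336 CPM in B cells.

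Of 8689 genes with at least 20 UMIs over both sets of cDC2, 582 (6.7%) were at least 2-fold higher in the IPA cells and 280 (3.22%) at least 2-fold lower. A ratio above 1 was found for 66.1% of genes and a ratio below 1 for 33.9%. The interval lay above 1 for 14.5% and below 1 for 3.14%, and the median log2 ratio of IPA over CCl4 was 0.18. With mitochondrial, ribosomal protein and 18S genes taken out of the totals the median was 0.02, and the split became 375 higher and 382 lower. With the 18S transcript alone taken out it was 493 and 335, and without the highest cell of each gene in each library it was 356 and 534. The last step takes 1 of 71 IPA cells but 1 of 276 CCl4 cells per gene with the totals kept, so it weighs more on the IPA side. A ratio within about the size of these shifts from 1 therefore carries no direction.

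Hpgd, which encodes the enzyme that inactivates prostaglandins, was the gene with the largest fold among those named by size. The CCl4 cells held 362 UMIs of Hpgd (143 CPM), spread over 88 of 276 cells with at most 17 in 1 cell. The IPA cells held 3 UMIs (5.35 CPM) in 3 of 71 cells. The CCl4 level was 26.7-fold the IPA level (9.06 to 130). After every cell was thinned to 2000 UMIs, 51 of 273 CCl4 cells (18.7%, 14.2 to 23.8) and 0 of 69 IPA cells (0%, up to 5.21%) had an Hpgd UMI, beside 0.241% and 0.280% of B cells. Classical monocytes also held less Hpgd in the IPA library, 170 UMIs against 14, or 8.50-fold higher in the CCl4 library. C1q macrophages held 62 and 2 Hpgd UMIs out of 321588 and 36098 UMIs in all, so these counts overstate any difference in level. Double-positive cells went the other way, with 8 and 14 out of 1351209 and 631025. The other gene of prostaglandin metabolism among those named, Ptgs2, which encodes the inducible cyclooxygenase, had 368 UMIs in CCl4 cells and 37 in IPA cells (145 and 65.9 CPM), 2.20-fold higher in the CCl4 library (1.57 to 3.17). Its log2 ratio of -1.14 became -0.33 after the screen for other cells' RNA described further on and -1.85 with at least 3 markers required. Ptgs2 was 1.84-fold higher in IPA monocytes, the opposite direction, and the difference between these cell types was not tested.

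Irf1, an interferon-induced transcription factor, was among the genes with the highest ratios in IPA cells and was widely carried. CCl4 cells held 248 UMIs (97.7 CPM) and IPA cells 194 (346 CPM), a ratio of 3.54 (2.92 to 4.29). It was detected in 110 of 276 cells (39.9%) and 50 of 71 (70.4%). At 2000 UMIs per cell the shares for Irf1 were 16.1% (11.96 to 21.0) and 37.7% (26.3 to 50.2), and the intervals did not overlap. Irf1 was also higher in IPA monocytes (ratio 2.24), double-positive cells (1.80), plasmacytoid cells (1.51), B cells (1.46) and T cells (1.34).

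Ly6a, the interferon-inducible surface protein Sca-1, had 246 and 181 UMIs, a ratio of 3.33 (2.73 to 4.05), with thinned detection of 13.2% and 30.4%. B cells also carry Ly6a (34.0% and 42.3%). Ly6a was thus higher across many IPA cells, not in a few. Tpm3-rs7, a tropomyosin 3 related sequence whose reads may be shared with tropomyosin 3 itself, had a ratio of 2.66 (1.95 to 3.60). Tcirg1, a subunit of the vacuolar proton pump, Ddit4, an inhibitor of mTOR induced by stress, the long non-coding RNA Kcnq1ot1, the deoxycytidine kinase Dck and the corepressor Tle3 had ratios between 2.32 and 2.42. The log2 ratio of Dck, 1.22, was 0.54 with at least 3 markers required and 0.30 with barcodes thinned before the rule.

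The other genes with the highest ratios rested on few cells. Ly6c2 had 176 UMIs in 49 CCl4 cells and 158 UMIs in 20 IPA cells, a ratio of 4.06 (3.26 to 5.06). A single IPA cell held 52.5% of the IPA UMIs. Without the highest cell of each library the log2 ratio of Ly6c2 fell from 2.02 to 1.19, and with at least 3 markers required it was 0.79. Ube2c, a ubiquitin-conjugating enzyme of mitosis, had 87 and 66 UMIs (ratio 3.43), of which 1 IPA cell held 65.2%. Stmn1, a microtubule regulator of dividing cells, had 293 and 145 UMIs (ratio 2.24), of which 1 IPA cell held 44.8%. Without the highest cells the log2 ratios were 0.82 for Ube2c and 0.47 for Stmn1. Over all genes the same step moved the median log2 ratio from 0.18 to 0.02.

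Among the genes lower in IPA cells, Plin2, which coats lipid droplets, had 379 UMIs in 150 CCl4 cells and 32 in 22 IPA cells, 2.62-fold higher in the CCl4 library (1.82 to 3.88). Clec12a, an inhibitory lectin that marks the Notch-independent form of cDC2, had 507 and 47 UMIs (200 and 83.7 CPM), 2.38-fold higher in the CCl4 library (1.77 to 3.29). Clec12a was detected in 68.1% and 46.5% of cells, and after thinning in 27.1% (21.9 to 32.8) and 15.9% (8.24 to 26.7), intervals that overlapped. In the other cell types with Clec12a the ratio of IPA over CCl4 lay between 0.68 and 1.11. Slamf7, a receptor of the SLAM family, had a CCl4 level 1.69-fold that of IPA (1.37 to 2.09), Rnh1, the ribonuclease inhibitor, 1.72-fold and Pals2, a scaffold protein, 1.70-fold.

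Lars2, which encodes a mitochondrial leucyl-tRNA synthetase, and the linker histone genes H1f4, H1f5 and H1f2 completed the genes with the lowest ratios, and were higher in the CCl4 library in other cell types too. Lars2 was 2.36-fold higher in CCl4 cDC2 and between 2.37-fold and 5.77-fold higher in the CCl4 library in every other cell type set beside it. H1f4 was 2.01-fold higher in cDC2 and between 1.62-fold and 3.81-fold higher elsewhere. When barcodes were thinned before the rule was applied, H1f2 changed direction, with a log2 ratio of 0.18 from 72 and 18 UMIs.

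**Figure D3:**
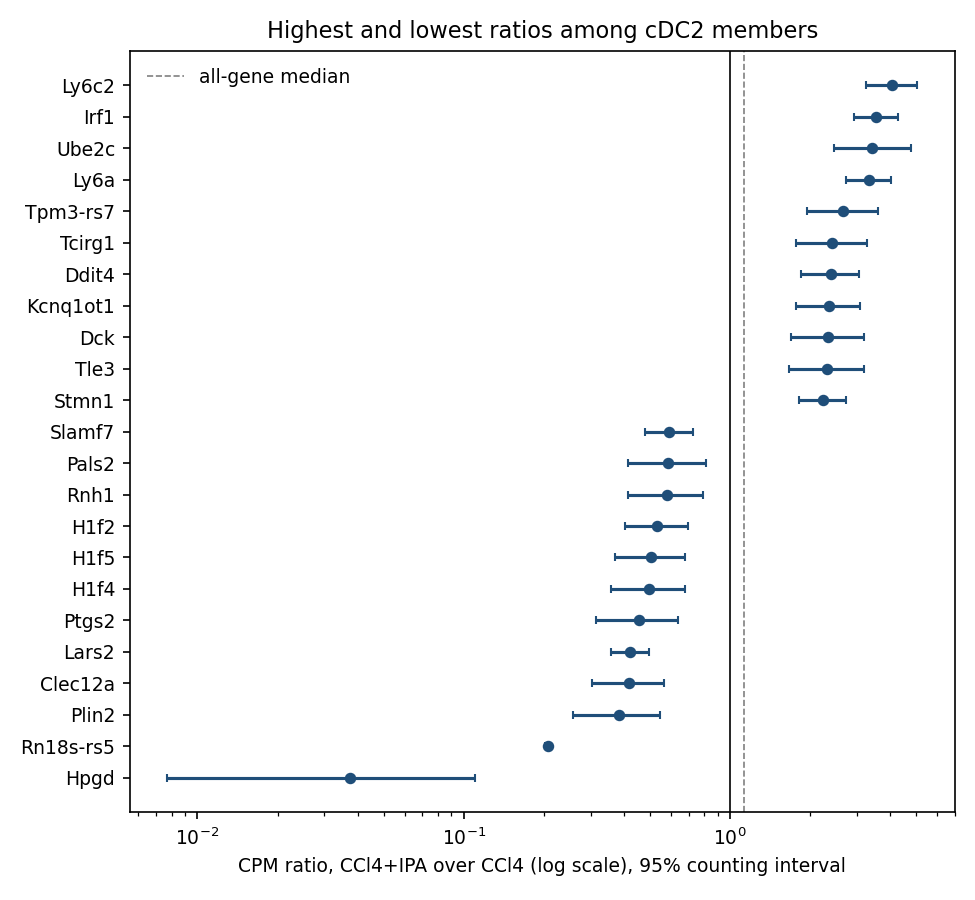
Ratio of CPM in CCl4+IPA cDC2 over CCl4 cDC2 (log axis) for genes among the 12 highest and 12 lowest by ratio, 1 left out, with at least 100 CPM and 50 UMIs in the higher library; bars are exact 95% counting intervals, the solid line is 1 and the dashed line the all-gene median. Hpgd lies far to the left of the other genes, with a wide interval because the IPA cells held 3 UMIs.

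**Figure D4:**
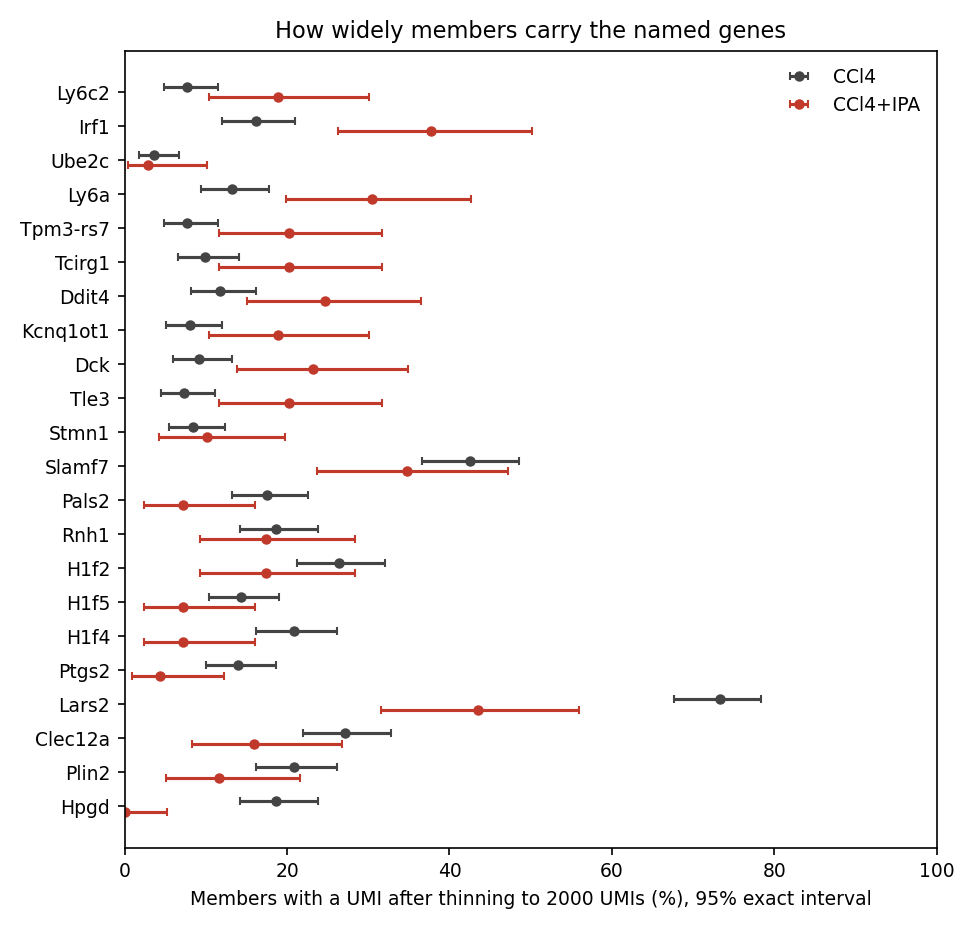
Percent of cDC2 with at least 1 UMI of the same genes except Rn18s-rs5 after each cell was thinned to 2000 UMIs (273 CCl4 cells in grey, 69 CCl4+IPA cells in red, exact 95% intervals). Irf1 and Ly6a were detected in more IPA cells, whereas for Ube2c and Stmn1 the intervals overlapped widely.

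Some genes were at least 10 times higher in another cell type of both libraries, and their UMIs here are open to free RNA from those cells. Cxcl2, a neutrophil-attracting chemokine, had 482 and 21 UMIs (5.07-fold higher in the CCl4 library, 3.28 to 8.27). Ccl5, a chemokine made by T and NK cells, had 493 and 46 UMIs (2.37-fold), and 1 CCl4 cell held 27.4% of the former. Fn1, fibronectin, had 59 and 78 UMIs (ratio 5.98), of which 1 IPA cell held 76.9%. F13a1, a monocyte transglutaminase, had 79 and 63 (ratio 3.61). The part of free RNA in these values was not tested.

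The gene groups are given by the role of their members, with each count read against the 66.1% of all genes that had a ratio above 1. The medians of the class II, surface receptor, growth factor receptor, costimulation, cytokine, chemokine, chemokine receptor, pattern receptor, Ahr and lipid lists changed sign under at least 1 alternative, so these lists carry no direction. MHC class II presentation was close to a ratio of 1 but below the all-gene median log2 ratio of 0.18. Of 15 measured genes, 5 had a ratio above 1 and 10 a ratio below 1, with a median log2 ratio of -0.11 (-0.28 to 0.02 over the alternatives). The interval lay above 1 for 1 gene and below 1 for 4, beside 14.5% and 3.14% of all genes. The list had 1 of 14 above 1 in double-positive cells (median -0.38, all genes 0.19), 7 of 14 in plasmacytoid cells (-0.01, all genes 0.17) and 8 of 10 in monocytes (0.13, all genes 0.15). In cDC2 the class II chains H2-Ab1 and H2-Eb1 had log2 ratios of -0.13 and -0.24, the invariant chain Cd74 0.04, and Ciita, the master regulator of the class II genes, 0.20. Per cell at 2000 UMIs, the summed class II genes had a median of 89 UMIs (quartiles 74 and 103) in CCl4 cells and 92 (78 and 106) in IPA cells. MHC class I presentation stood higher in IPA cells, with 15 of 17 genes above 1, 12 of them with an interval above 1, and a median of 0.38. H2-K1, a classical class I chain, had 2736 and 939 UMIs (ratio 1.55, 1.44 to 1.67), the peptide transporter Tap1 had 333 and 106 (1.44, 1.15 to 1.80), and B2m, the shared light chain, had a ratio of 1.12. H2-Q6 (ratio 2.39) and H2-Q4 (2.03) are near-identical copies among which reads may be split. The immunoproteasome subunits Psmb8 and Psmb10 had ratios of 0.99 and 0.92. The class I median stayed above 0 under each alternative tried, between 0.21 and 0.54. Class I genes were also higher in other IPA cells. Double-positive cells had 16 of 17 above 1 (median 0.38, all genes 0.19), plasmacytoid cells 15 of 17 (0.36, all genes 0.17) and monocytes 14 of 17 (0.49, all genes 0.15). In B cells (0.22, all genes 0.27) and T cells (0.21, all genes 0.29) the class I median was below that of all genes.

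Dendritic cell transcription factors had a ratio above 1 in 18 of 19 measured, with a median of 0.44 (0.24 to 0.46 over the alternatives). This was not particular to cDC2. The same list had 18 of 19 above 1 in classical monocytes (median 0.34, all genes 0.15) and 20 of 22 in B cells (0.34, all genes 0.27). T cells had 20 of 21 (0.27, all genes 0.29), plasmacytoid cells 14 of 18 (0.19, all genes 0.17) and double-positive cells 9 of 19 (-0.03, all genes 0.19). Runx3, a Runt-family factor, had 295 and 129 UMIs (ratio 1.98, 1.60 to 2.44). Klf4, which cDC2 development requires, had 2388 and 693 (1.31, 1.20 to 1.43), Notch2 had 233 and 77 (1.49, 1.14 to 1.94) and Id2 had 915 and 310 (1.53, 1.34 to 1.75). Irf4 was the exception, with a ratio of 0.69 (0.43 to 1.08), an interval that took in 1. Irf8, the factor of type 1 and plasmacytoid cells, had 169 and 82 UMIs (2.19), of which 1 IPA cell held 42.7%.

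Among surface receptors, 9 of 15 had a ratio above 1 (median 0.03). Itgam (CD11b) had a ratio of 1.26, while the neighbouring transmembrane protein genes Tmem176a and Tmem176b were at 0.71 each, with 1146 and 181 and with 1390 and 219 UMIs. Growth factor and cytokine receptors had a median of 0.12 over 16 genes. Il4ra, the interleukin 4 receptor, had a ratio of 1.77 (1.24 to 2.50) and Il10ra 1.47 (1.20 to 1.80), while the macrophage growth factor receptor Csf1r was level at 1.06 (0.87 to 1.30). Of the costimulatory ligands, 9 of 14 had a ratio above 1. Cd86 had 192 and 61 UMIs (1.44, 1.06 to 1.93), Cd83 had 793 and 240 (1.37, 1.18 to 1.58), Cd40 had 63 and 12 (0.86, 0.42 to 1.61) and Cd80 had 41 and 5 (0.55, 0.17 to 1.39).

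Chemokine receptors went in both directions. Ccr2, which brings monocytes and their relatives out of the marrow, had 2206 and 371 UMIs (869 and 661 CPM; ratio 0.76, 0.68 to 0.85). Cx3cr1, the fractalkine receptor, had 356 and 49 (0.62, 0.45 to 0.84) and was detected in 52.9% and 32.4% of cells. Cxcr4, a bone marrow retention receptor, had 455 and 161 (1.60, 1.33 to 1.92). Ccr7, the receptor for migration to lymph nodes, had 59 and 32 UMIs (2.45), but 1 IPA cell held 78.1% of them. Clec12a, Ccr2 and Cx3cr1 were thus lower in IPA cells, though the whole list of Clec12a and Ccr2-type genes divided 5 above and 6 below 1, with a median of -0.26 that ranged from -0.61 to 0.33 over the alternatives. Within that list Cebpb, a myeloid transcription factor, had a ratio of 1.82 and Lyz2, known from monocytes and macrophages, 1.28. Both are open to free RNA, being over 10 times higher in another cell type, and 1 IPA cell held 42.8% of the Lyz2 UMIs and 3 held 60.7%.

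Cytokine output was carried by few genes. Il1b had 3448 and 1186 UMIs (ratio 1.56, 1.46 to 1.66) and was detected in 77.5% and 76.1% of cells. It was also higher in IPA monocytes (2.10) but lower in plasmacytoid cells (0.25) and double-positive cells (0.55). Tgfb1, the profibrotic and regulatory cytokine, had 498 and 185 UMIs (1.68, 1.41 to 1.99) and was detected in 78.3% and 87.3%. Tnf had 277 and 47 (0.77, 0.55 to 1.05). Il10, Il12a, Il12b and Il33 had 0 UMIs in both libraries, where the 3 UMIs allowed by a count of 0 correspond to 1.18 and 5.35 CPM. The chemokine Ccl4 had 4378 and 1261 UMIs (1.30, 1.22 to 1.39) and Ccl3 661 and 198 (1.36, 1.15 to 1.59). Ccl22, made by mature dendritic cells, had 40 UMIs in CCl4 cells and 0 in IPA cells, at least 2.95-fold higher against a limit of 3 UMIs, but 1 CCl4 cell held 45% of the UMIs and 3 held 85%. Cxcl10, an interferon-induced chemokine, had 329 and 156 UMIs (2.14, 1.76 to 2.60) in 43 and 10 cells, and 3 IPA cells held 65.4%.

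Interferon-response genes had a ratio above 1 in 25 of 32, with 17 intervals above 1 and 1 below, beside 14.5% and 3.14% of all genes. The median was 0.53, between 0.25 and 0.61 over the alternatives. The list divided within itself. The signalling gene Stat2 (130 and 58 UMIs, ratio 2.02, 1.45 to 2.77) was higher in IPA cells. So were the antiviral genes Oasl2 (249 and 118, 2.14, 1.71 to 2.68), Ifi204 (127 and 60, 2.14, 1.55 to 2.93) and Rsad2 (212 and 77, 1.64, 1.25 to 2.14). The strongly inducible genes Isg15 (581 and 125, 0.97, 0.80 to 1.18) and Ifit2 (433 and 93, 0.97, 0.77 to 1.22) were not, and Ifit1 was lower (412 and 58, 0.64, 0.48 to 0.84). Iigp1 had 1 UMI in CCl4 cells and 31 in IPA cells, all 31 in 1 cell. At 2000 UMIs, Stat2 was detected in 11.0% and 23.2% of cells and Ifit1 in 16.8% and 14.5%. Summed over the list, a CCl4 cell had a median of 8 UMIs (quartiles 4 and 11) and an IPA cell 9 (6 and 16).

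The interferon list was set beside the same list in other cells, with the all-gene median of each cell type. All 28 measured members had a ratio above 1 in classical monocytes (median 0.82, all genes 0.15), 22 of 25 in neutrophils (0.61, all genes 0.14) and 17 of 23 in double-positive cells (0.51, all genes 0.19). Plasmacytoid cells had 19 of 28 (0.24, all genes 0.17), and in T cells 20 of 32 were above 1 with a median of 0.11, below the 0.29 of all genes. In the few type 1 dendritic cells 3 of 11 were above 1 (-0.51, all genes 0.19). Ifit1 was 6.38-fold higher in IPA monocytes (3.74 to 11.5), opposite to cDC2, and Isg15 was 2.07-fold higher there. Whether these ratios differ between cell types was not tested.

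Promoter stretches of genes on both sides of that division are shown, since cells read interferon signals through short elements upstream of these genes. Type I interferon acts through the interferon-stimulated response element (ISRE, searched as TTTC, any 2 bases and TTTC again, on either strand), and interferon gamma through the gamma-activated site (GAS, searched as TTCNNNGAA on either strand). Both patterns contain TTC, so a match of either can overlap the other. The sequences come from the RefSeq GRCm38.p6 promoter table, which held 25 of the 32 interferon genes matched by symbol. Within the 250 bases before the start, ISRE was found in 16 of 25 (64%) and in 3.46% of all 27025 genes, and GAS in 5 of 25 (20%) and in 8.13%. Each line runs 5′ to 3′ on the gene's strand, with the matched bases in capitals: Irf1 (GAS, chr11:53769894-53769973, plus strand), Stat2 (ISRE, chr10:128270248-128270325, plus strand), Ifit1 (ISRE, chr19:34640774-34640853, plus strand) and Isg15 (ISRE, chr4:156200835-156200914, minus strand).
Irf1: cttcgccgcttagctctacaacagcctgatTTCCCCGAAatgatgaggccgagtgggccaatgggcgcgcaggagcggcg
Stat2: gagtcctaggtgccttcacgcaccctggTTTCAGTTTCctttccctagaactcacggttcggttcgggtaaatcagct
Ifit1: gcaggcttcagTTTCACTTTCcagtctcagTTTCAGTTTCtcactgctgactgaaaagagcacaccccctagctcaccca
Isg15: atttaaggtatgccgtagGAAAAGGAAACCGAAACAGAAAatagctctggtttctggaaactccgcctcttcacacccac
Stat2, with a ratio above 1, has 1 ISRE match in the stretch, and Ifit1 and Isg15, which were lower or level, have 2 and 3, those of Isg15 overlapping. A match is a description of the letters only.

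Immediate early and dissociation-stress genes had a ratio above 1 in 28 of 29, with 22 intervals above 1 and a median of 0.36 (0.19 to 0.50 over the alternatives). Dusp1, a phosphatase that limits MAP kinases, had 4438 and 1514 UMIs (ratio 1.54, 1.45 to 1.64), Nr4a1 had 1816 and 639 (1.59, 1.45 to 1.74), Klf2 had 3077 and 1040 (1.53, 1.42 to 1.64) and Fos had 12496 and 3054 (1.11, 1.06 to 1.15). Atf3 was level at 0.97 (0.91 to 1.03). The same list had 22 of 28 above 1 in monocytes (median 0.52, all genes 0.15), 23 of 29 in T cells (0.47, all genes 0.29) and 21 of 28 in plasmacytoid cells (0.35, all genes 0.17). In the few type 1 dendritic cells it had 7 of 24 (-0.38, all genes 0.19). Its genes respond to tissue digestion as well as to stimuli in the animal, which cannot be told apart here. The NF-kB pathway had 16 of 18 above 1 (median 0.30). The same count was found in plasmacytoid cells (median 0.37, all genes 0.17) and monocytes (0.47, all genes 0.15). In the few type 1 dendritic cells 1 of 6 was above 1 (-1.69, all genes 0.19). In cDC2, single genes of this pathway differed. Icam1, an adhesion molecule, had 323 and 157 UMIs (2.20, 1.81 to 2.67), the feedback inhibitor Tnfaip3 had 848 and 275 (1.47, 1.28 to 1.68), and Nfkbia was level at 0.99 (0.91 to 1.08).

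Receptors through which indoles are known to act were seen in part. Ahr, the aryl hydrocarbon receptor, had 143 and 49 UMIs (ratio 1.55, 1.10 to 2.16) and was detected in 26.1% and 36.6% of cells. Nr1i2, the pregnane X receptor that binds IPA, had 0 UMIs in both libraries, as did the Ahr target genes Cyp1a1, Cyp1b1 and Nqo1. The Ahr-induced gene Tiparp had 456 and 98 UMIs (0.97, 0.77 to 1.21), and 3 of 7 measured genes of the list had a ratio above 1.

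Pattern recognition receptors had 13 of 20 above 1 (median 0.28). The beta-glucan receptor Clec7a had 913 and 191 UMIs (0.95, 0.80 to 1.11) and Tlr2 162 and 41 (1.14, 0.79 to 1.62), while Tlr4, the receptor for bacterial lipopolysaccharide, had 32 and 2 (0.28, 0.03 to 1.11). Lipid-handling and scar-associated macrophage genes divided evenly, 9 above and 9 below 1. Besides Hpgd and Plin2, Lgals3 (galectin 3) was lower in IPA cells, with 3063 and 536 UMIs (0.79, 0.72 to 0.87). Apoe, an apolipoprotein, had 431 and 172 UMIs, of which 1 cell in each library held 43.6% and 68.0%. Matrix and fibrosis mediators had a ratio above 1 in 7 of 7, led by Fn1 and Adam8 and including Tgfb1 and Tgfbi (182 and 77 UMIs, 1.91, 1.45 to 2.51). Fn1 is open to free RNA, with 76.9% of its IPA UMIs in 1 cell, and Adam8 had 22 and 15 UMIs. The list was not particular to cDC2. It had 9 of 9 above 1 in monocytes (median 0.49, all genes 0.15), 12 of 15 in B cells (0.47, all genes 0.27) and 3 of 6 in plasmacytoid cells (0.18, all genes 0.17).

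**Figure D5:**
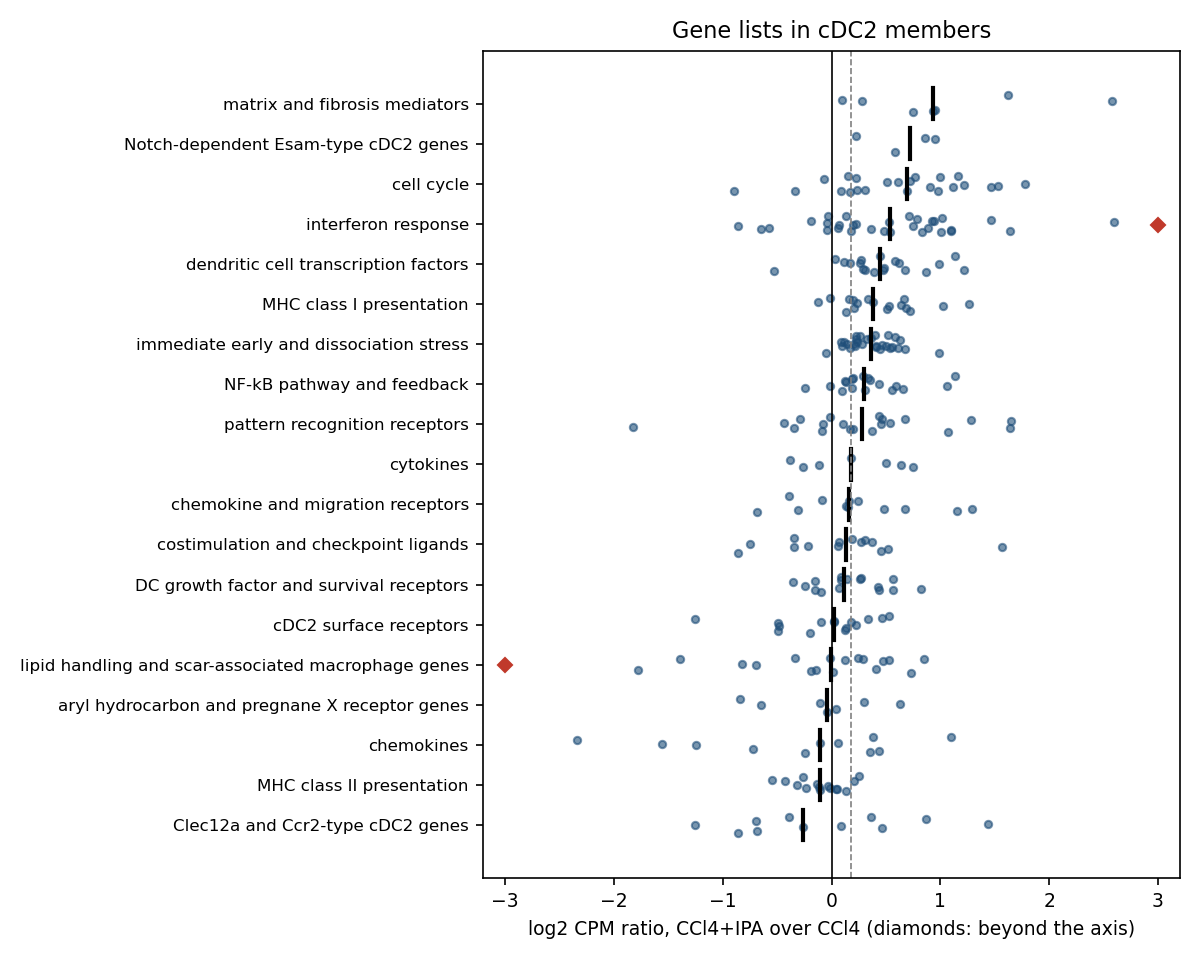
Log2 ratio of CPM, CCl4+IPA over CCl4, of each measured member (points) of the 19 gene lists in cDC2, with the list's median as a black bar and the all-gene median of 0.18 as a dashed line; red diamonds lie beyond the axis (Iigp1 and Hpgd). Interferon, transcription factor, class I and immediate early genes sit mostly to the right, and class II genes close to 0.

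Cycling cells were present in both libraries. At least 4 of 8 cycling genes were found in 17 of 276 CCl4 cells (6.16%, 3.63 to 9.68) and 5 of 71 IPA cells (7.04%, 2.33 to 15.7), so no difference in the share was detectable at this depth. The cell cycle list had 20 of 23 genes above 1 (median 0.69). Genes of mitosis rested on these few cells, which held 201 of 229 and 76 of 86 UMIs of Mki67, a marker of dividing cells. The histone gene H2az1, at a ratio of 0.79 with 3952 and 693 UMIs, was found in 273 of 276 CCl4 cells.

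Some monocyte genes were higher in the summed IPA cells, through few cells. The summed monocyte marker list was at 1382 CPM in CCl4 cDC2 and 2507 CPM in IPA cDC2, and 7 of its 10 measured genes had a ratio above 1, near the share of all genes. Cells with 5 or more Ly6c2 UMIs, a limit chosen after the values were seen, were 10 of 276 and 6 of 71. In the 6 IPA cells Lyz2 was at 8243 CPM, Fn1 at 1077 CPM and H2-Aa at 4183 CPM, against 704, 9.85 and 10210 CPM in the 51 IPA cells without Ly6c2. In the cells without a Ly6c2 UMI such genes went in both directions: Lyz2 was at 1135 CPM in CCl4 cells and 704 CPM in IPA cells, F13a1 at 9.68 and 4.93 CPM and Ccr2 at 838 and 564 CPM, while Plac8 was at 723 and 1251 CPM. The leading differences were present in the same cells: Hpgd was at 150 CPM in 227 CCl4 cells and 4.93 CPM in 51 IPA cells, Irf1 at 104 and 377 CPM, and Clec12a at 209 and 86.2 CPM. The part of monocyte RNA or monocyte-like cells in the other ratios was not tested. Macrophage markers summed to 122 and 180 CPM, and T cell markers to 39.4 and 48.1 CPM.

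B cell markers summed to 234 and 225 CPM, mostly from Ighm, the heavy chain of immunoglobulin M (198 and 175 CPM). T cells held Ighm at 160 and 254 CPM and classical monocytes at 175 and 202 CPM. A screen that left out cells with 2 or more Ighm UMIs, or signs of T, NK or neutrophil RNA, removed 145 of 276 CCl4 cells and 21 of 71 IPA cells, of which 142 and 21 by Ighm. The share was then 2.66-fold higher in the CCl4 library.

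Within each library cDC2 varied most in a few genes. At equal depth the variance of UMIs over their mean had a median of 1.08 and 1.09 over 2429 genes, near the value of 1 that counting alone gives. Ranked by the lower value of both libraries, it was highest for Apoe (24.9 and 43.2), Rn18s-rs5 (29.7 and 24.2), Lyz2 (14.9 and 24.8), the nuclear RNA Malat1 (19.2 and 12.8) and the chemokine Ccl4 (11.2 and 15). Tmsb4x, an actin-binding peptide, followed with 5.52 and 6.51. Cd74 (4.27 and 7.24), Il1b (3.70 and 5.68) and the interferon gene Rsad2 (3.46 and 10.9) were also among the variable genes. The genes that varied most from cell to cell thus included some of the monocyte, chemokine and interferon genes described above.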

How the data were processed

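Per the labels' protocols, dissociated liver cells went through red cell lysis and dead cell removal, and 10x Genomics 3′ libraries were sequenced. The deposited matrices hold raw UMI counts; per the file headers Cell Ranger 7.1.0 made them, and mm9 is the build per the submitters' processing notes, and no coordinates were taken from the files. The matrices hold 55357 genes, and 10294 of 10427 and 10459 of 10471 barcodes were kept.

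Counts were summed over cells per library and scaled to CPM. CPM has exact Poisson intervals, ratios exact conditional binomial intervals and shares Clopper-Pearson intervals. A 0 was set at 3 UMIs per library for ratios. No test was run. Tested on simulated data, 96.8% of intervals over 8661 genes held the true ratio. These intervals treat each UMI as an independent count, so they are too narrow for genes whose UMIs cluster in few cells. The variance over the mean was 14.9 and 24.8 for Lyz2 and 3.70 and 5.68 for Il1b in CCl4 and IPA cDC2. The median over genes was 1.08 and 1.09. The simulated share does not show how the intervals hold for genes such as Lyz2, which was not tested. Scrublet (scanpy 1.11.5) called doublets, which stayed in unless an alternative left them out. Python 3.11.15, numpy 2.4.6, scipy 1.17.1 and pandas 2.3.3 were used.

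The cell rule and gene lists were chosen with earlier results of these data known. Named genes were the 12 highest and 12 lowest ratios with 100 CPM and 50 UMIs in the higher library, the 15 genes highest against other cell types, and up to 3 highest and 3 lowest per list. Others were named after their values were seen. Some genes that this rule names are not reported here.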

Additional observations from a re-analysis of the deposited data

How the results depend on the processing

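The cDC2 share was lower in the IPA library under each of 10 alternatives. The higher UMI minimum per barcode and the removal of Scrublet calls kept the same cDC2. They changed only the number of barcodes these cells were counted against. The log2 ratio stayed between -1.97 and -2.10 in 9 and was -1.41 after the screen for RNA of other cells, which removed 145 and 21 cells, nearly all by Ighm. Of the counts of genes, 582 at least 2-fold higher became 293 with barcodes thinned before the rule (3332 genes measured), 375 with mitochondrial, ribosomal protein and 18S genes out of the totals, 351 after division by the all-gene median, 227 with at least 50 UMIs per gene and 356 without the highest cell of each gene. The 280 lower genes became 70 with at least 50 UMIs and 534 without the highest cell. Some of these shifts follow from the settings. Fewer genes were measured with thinning and with the higher minimum. Other totals, and division by the all-gene median, move every ratio by the same factor. Leaving out the highest cell takes 1 of 71 IPA cells and 1 of 276 CCl4 cells per gene, with the totals kept. That is a larger part of the IPA cells, and the all-gene median log2 ratio fell to 0.02. What else lies behind the shifts was not tested.

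For the 24 genes named by size, 389 values were close to those reported, 40 moved and 1 changed direction (H1f2, 0.18 on the log2 scale with barcodes thinned before the rule). Of list medians 333 were close and 4 moved. Part of this closeness was fixed in advance. The higher UMI minimum per barcode and the removal of Scrublet calls kept the same cDC2, so no ratio could change. The other value for a 0 and the higher UMI minimum per gene could not change the ratio of a gene named by size. Values from these alternatives are among those counted as close and are no evidence of stability. The alternatives without Ly6c2-positive cells, without cycling cells, without the highest cell and without 18S alone were chosen after seeing the data. No paired analysis was possible because each group has 1 library and the libraries share no replicate. Depth limits the IPA side most, since 71 cells carried 561218 UMIs.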
